A study of Homo sapiens with 8 samples.

Results

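The insulin-like growth factor (IGF) axis of Rh41 cells was examined as 10 genes chosen by symbol: the ligand IGF2, its neighbour H19, the receptors IGF1R, IGF2R and INSR, the adaptors IRS1 and IRS2, and the binding proteins IGFBP2, IGFBP4 and IGFBP5. All 10 were found among the 60234 genes of the deposited table, each under 1 Ensembl identifier, and all 10 passed the filter of a mean CPM of 1 (CPM, reads of a gene scaled to a fixed library total) over the libraries. Rh41 is an established human alveolar rhabdomyosarcoma line, from a cancer that resembles developing muscle, and has the fusion gene PAX3-FOXO1. The 8 libraries were 4 labelled control and 4 labelled siG9a, all of this line and fusion, in which the histone methyltransferase G9a, encoded by EHMT2, was knocked down. The sample labels name the knockdown siG9a and the series title names it shG9a, and the control reagent and the time are not given in the sources used here. The design text calls the replicates biological and does not say how the cultures were separated.

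IGF2 is a growth factor of fetal tissues that signals through the IGF1 receptor and the insulin receptor, whereas the IGF2 receptor takes it up for breakdown in lysosomes. The receptors act through the adaptors IRS1 and IRS2 on PI3-kinase and AKT, and IGF-binding proteins hold the ligand outside the cell. IGF2 and the non-coding RNA H19 lie side by side in an imprinted region and are normally expressed from opposite parental alleles. IGF2 is known to be abundant in rhabdomyosarcoma.

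Libraries held between 1458825 and 1938665 reads on genes, recovered from the CPM, so 1 read was worth between 0.516 and 0.685 CPM. All values below are CPM of reads at transcript ends, which are not divided by gene length. EHMT2 in siG9a stood at 34.0%, 51.6%, 37.9% and 66.3% of the equally numbered control (replicates 1 to 4). It was lower in 4 of 4 pairs, as were 15.3% of all genes. Its groups overlapped, through control replicate 1 (57.6 CPM) and siG9a replicate 4 (58.5 CPM). In the limma fits described below its adjusted p was 0.000472 paired and 0.191 unpaired. The 2 replicate 3 libraries stood apart. The summed level of 10 muscle markers was 289 to 428 CPM in them and 1167 to 3110 CPM in the other 6, and that of 8 neural markers 8966 to 9670 CPM against 196 to 2963 CPM. Most of the neural sum was NEFM, a neurofilament subunit. NEFM, NEFL and SOX2 were highest in the 2 replicate 3 libraries. The other neural markers, STMN2, TUBB3, ELAVL4, SYP and SNAP25, stood between 0 and 7.29 CPM in every library. Between the groups, 6 of the 10 muscle markers were lower in siG9a in the paired fit described below, as were 6.52% of all genes. Their summed level was 428 to 3110 CPM in control and 289 to 1728 CPM in siG9a. Of the other markers that passed the filter, 0 of 5 neural were called, and 1 of 5 fibroblast and 1 of 4 epithelial were lower. Of 2 immune markers 1 was higher, as were 4.86% of all genes. No endothelial marker passed the filter, so none was tested. The part of all these markers in the results was not tested. Markers of fibroblasts and stroma summed to 52.0 to 118 CPM in the replicate 3 libraries and 146 to 409 CPM in the others. Those of epithelium summed to 44.0 to 76.2 CPM against 10.3 to 33.2 CPM. The stromal sum was mostly COL3A1 and COL1A1, and COL1A1 was highest in control replicate 3 (55.3 CPM). DCN, LUM, THY1 and POSTN stood between 0 and 1.21 CPM in every library. Of the epithelial markers, KRT8 and KRT18 were highest in replicate 3. CDH1 was highest in control replicate 4 and KRT19 in siG9a replicate 1, and EPCAM, CLDN4 and ESRP1 stayed at or under 0.69 CPM. Markers of endothelium summed to 1.23 to 2.08 CPM in control and 0 to 0.57 CPM in siG9a, with CDH5 and KDR at 0. Only 1 of them held more than 3 reads in any library, so these sums rest on few reads. Those of immune cells summed to 1.56 to 6.85 CPM in control and 5.45 to 18.4 CPM in siG9a. In siG9a most of the immune sum was CD74, at 4.84 to 13.8 CPM, against 0.52 to 4.11 CPM in control (background without overlap in this direction 3.88% of all genes). PTPRC, CD68 and CD3E stood at or under 1.37 CPM in every library. In bulk RNA, fewer cells of a type and less RNA per cell cannot be told apart. The libraries of replicates 1 and 3 deviated together from their group means (correlations of 0.500 and 0.673 across genes). Those of replicates 2 and 4 did so little (0.104 and 0.130), where differently numbered libraries reached 0.144. A fit with the replicate number as a block, called paired below, is given beside the fit without it. The share of mitochondrial reads was higher in siG9a than in the same-numbered control in each pair, from 4.59% to 9.18% in control and from 5.21% to 13.7% in siG9a. Its part in the results below was not tested. IGF2, IRS1 and IGFBP2 were called in the paired fit both with and without mitochondrial genes in the total, which only rescales the values.

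Of the 10 members, 3 were lower in siG9a in the paired fit (limma, adjusted p under 0.05), IGF2, IRS1 and IGFBP2, and 0 were higher. Over all 15092 genes tested that fit called 6.52% lower and 4.86% higher. Without the block limma called 0 members and 0% of all genes, with 3 members and 12.5% of all genes at an unadjusted p under 0.05. Without the block edgeR called 0% of all genes (12.2% at an unadjusted p under 0.05) and DESeq2 1.93%, and neither called a member. With the block edgeR called the same 3 members, where 6.59% of all genes were lower, and DESeq2 called IRS1 and IGFBP2, where 4.19% were. Leaving out both replicate 3 libraries, limma called IGF2 and IGFBP2 without the block, where 1.95% of all genes were lower, and IGF2, IRS1 and IGFBP2 with it, where 4.59% were. IGFBP2 was also called, alone of the members, by unpaired limma with array weights (1.73% of genes lower) and without control replicate 3 (1.44%). Every pair was lower for IRS1, IGFBP2 and IGFBP4, as for 15.3% of all genes (in IGFBP4 1 pair had equal reads), and no member was higher in every pair, as 14.9% of all genes were. The median log2 change of the 10 members was −0.51, and that of all genes 0.01. By mean level over the 8 libraries the order was IGF2 (792 CPM), IGFBP2 (230.3 CPM), IGF2R (93.6 CPM), IRS2 (44.2 CPM), IGF1R (43.3 CPM), IRS1 (33.7 CPM), INSR (12.2 CPM), IGFBP5 (3.88 CPM), H19 (1.34 CPM) and IGFBP4 (1.07 CPM). IGF2 was above IGFBP2, and INSR above IGFBP5, in 8 of 8 libraries. IGFBP2 was above IGF2R, IGF2R above IRS2 and IGFBP5 above H19 in 7 of 8, and IRS1 above INSR in 6 of 8. IRS2 was above IGF1R in 4 of 8 libraries, IGF1R above IRS1 in 5 of 8 and H19 above IGFBP4 in 5 of 8, so these neighbours did not differ beyond the spread between libraries.

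**Figure D1:**
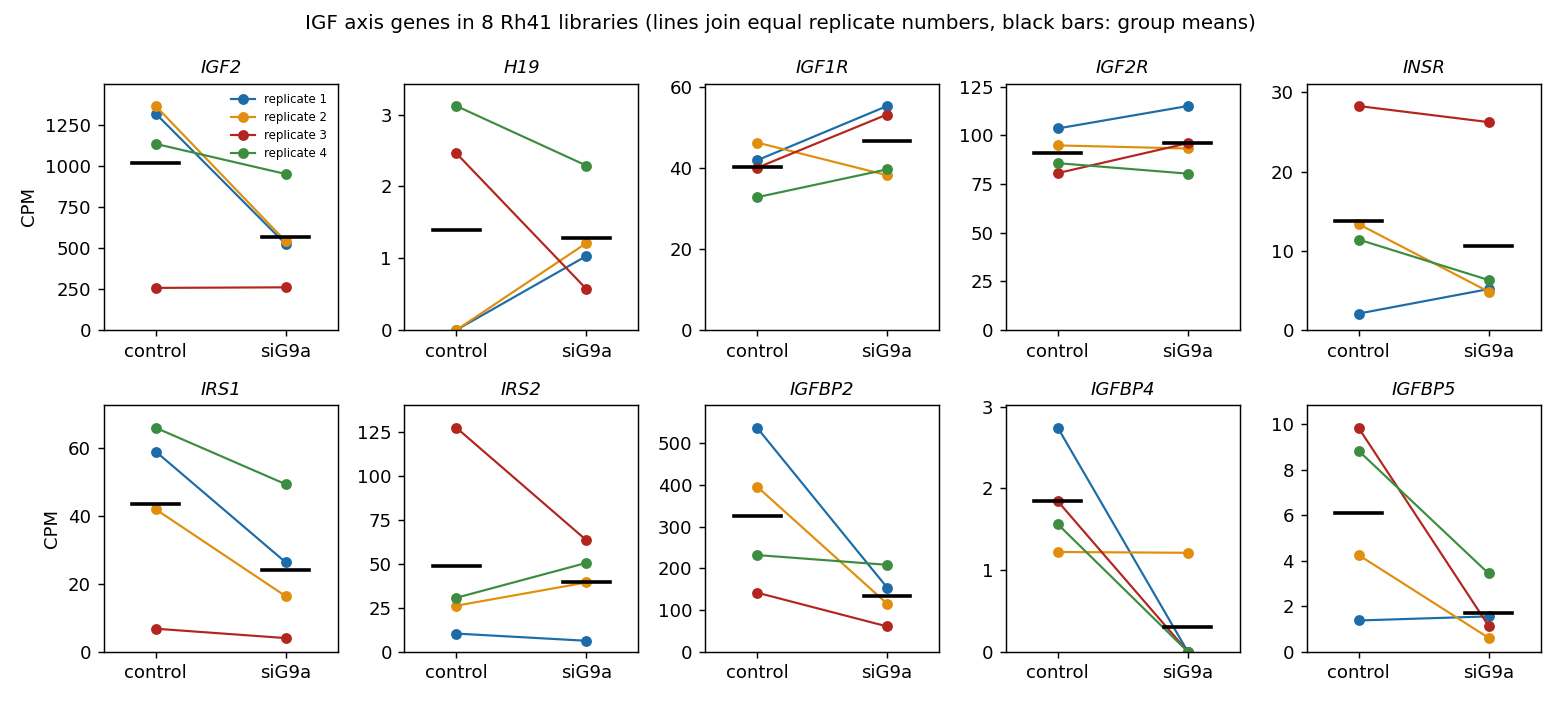
CPM of the 10 IGF axis genes in each library (y axis from 0, its range set for each gene), with control on the left and siG9a on the right. Lines join libraries with the same replicate number and black bars are group means. IGF2 lies near 260 CPM in both replicate 3 libraries, where IRS1 is also lowest and IRS2 and INSR are highest.

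IGF2 (ENSG00000167244) was the most abundant member in every library. In control it measured 1317, 1363, 256 and 1132 CPM in replicates 1 to 4, and in siG9a 523, 539, 259 and 949 CPM. Replicate 3 was the lowest library of both groups, the other 3 control libraries lay above all siG9a libraries, and with replicate 3 the groups overlapped. Relative to the control library of the same number, siG9a retained 39.7%, 39.6%, 101% and 83.8% of IGF2. The pair with no fall was thus the pair whose control was already low. Control libraries averaged 1017 ± 517 CPM and siG9a libraries 568 ± 285 CPM (SD, n = 4 each). On the log2(CPM + 1) scale IGF2 differed by −0.73, with an SE of 0.18 and a limma adjusted p of 0.00975 in the paired fit, and with an SE of 0.51 and an adjusted p of 0.609 without the block. Without the replicate 3 libraries it was −0.97, with a limma adjusted p of 0.0064 paired and 0.0432 unpaired. DESeq2 with the block did not call it (adjusted p 0.182), and the paired limma fit gave 0.118 without replicate 1 and 0.159 without replicate 2.

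In GENCODE release 29 (GRCh38), IGF2 lies at chr11:2129112-2149603 on the minus strand, and 73.7% of its exonic bases, including 100% of the last 500, are shared with exons of other genes on the same strand. These are the readthrough gene INS-IGF2, a non-coding transcript and another record of IGF2 itself. Reads could be divided among these records, depending on an annotation and counting rule not given in the sources used here. INS-IGF2, named for this overlap after its values were seen, held 0 to 4.80 CPM. IGF2-AS, antisense to IGF2, measured 33.6, 29.2, 14.8 and 28.04 CPM in control and 26.3, 13.9, 5.71 and 25.2 CPM in siG9a. All 4 pairs were lower, and limma gave adjusted p values of 0.0848 paired and 0.567 unpaired. Like IGF2, it was lowest in the replicate 3 library of each group.

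H19, a maternally expressed non-coding RNA next to IGF2, was near the limit of detection. It had 0, 0, 4 and 6 reads in control replicates 1 to 4 and 2, 2, 1 and 4 reads in siG9a. Only 3 libraries held more than 3 reads. The 95% Wilson interval of 0 reads reached 2.63 CPM in control replicate 1 and 2.33 CPM in control replicate 2. Over all libraries of a group, 10 reads of H19 stood beside 6761 of IGF2 in control, and 9 beside 4013 in siG9a. The pooled H19 level in siG9a was 0.845 times that in control, with an exact 95% interval from 0.304 to 2.32 that covers counting error only. The log2 ratio of H19 to IGF2, with 1 CPM added to each, was −8.77 ± 2.02 in control and −7.87 ± 0.35 in siG9a (SD, n = 4 each). The difference of 0.90 was within the spread between libraries (exact permutation test, two-sided p = 0.343, where 4 against 4 can reach 0.0286). A change of H19 was thus not detectable at this depth.

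Other genes of the same region of chromosome 11, together with the insulator factor CTCF from outside it, were counted from a list of 11 genes. Of this list 7 passed the filter and 2 fell in the paired fit, where 6.52% of all genes were lower. KCNQ1OT1, a paternally expressed antisense RNA of the neighbouring imprinted domain, measured 621, 574, 257 and 968 CPM in control and 383, 389, 244 and 508 CPM in siG9a. All 4 pairs were lower. The log2 difference was −0.57 ± 0.15 (SE), with limma adjusted p values of 0.0129 paired and 0.555 unpaired. The paired call of KCNQ1OT1 was lost without replicate 1 (0.0684), replicate 2 (0.0792) or replicate 4 (0.0599), and not without replicate 3 (0.0133). CD81, a tetraspanin encoded between IGF2 and KCNQ1OT1, fell from 360 ± 46.6 to 238 ± 41.4 CPM (SD, n = 4 each) and its groups did not overlap (background in this direction 3.45% of all genes). Its limma adjusted p was 0.00533 paired and 0.254 unpaired. CDKN1C, a cell cycle inhibitor of that domain, measured 4.55 ± 2.26 and 3.62 ± 2.26 CPM (SD, n = 4 each), with a paired log2 change of −0.29 and a 95% interval from −1.13 to 0.55. IGF2, IGF2-AS and KCNQ1OT1 shared their lowest library in both groups, replicate 3, whereas CD81 in replicate 3 lay inside the range of its group.

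**Figure D2:**
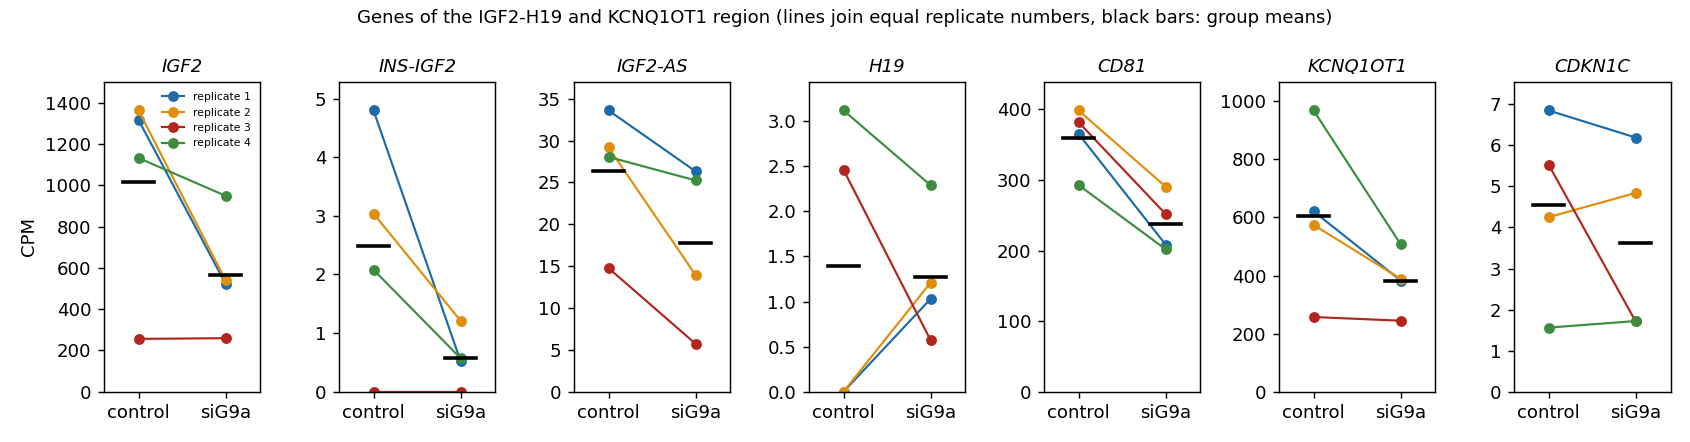
CPM of 7 genes of the IGF2-H19 and KCNQ1OT1 region by library (y axes from 0, set for each gene), with lines joining equal replicate numbers and black bars for group means. CD81 falls in 4 of 4 pairs without overlap, and H19 stays at or under 3.12 CPM.

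The receptors did not pass the test in either fit. IGF1R, the main signalling receptor of both IGFs, measured 41.8, 46.2, 39.97 and 32.7 CPM in control and 55.2, 38.1, 53.1 and 39.6 CPM in siG9a. It was higher in 3 of 4 pairs and its groups overlapped. The paired log2 change was 0.20, with a 95% interval from −0.20 to 0.60 and a limma adjusted p of 0.574. IGF2R, the receptor that removes IGF2, stood between 80.6 and 103.5 CPM in control and between 80.3 and 115.03 CPM in siG9a, with a paired change of 0.07 and an interval from −0.25 to 0.40. These intervals leave room for changes of up to those sizes in either receptor. INSR, the insulin receptor, whose short isoform binds IGF2, measured 2.06, 13.4, 28.3 and 11.4 CPM in control and 5.16, 4.84, 26.3 and 6.31 CPM in siG9a. It was highest in the replicate 3 library of each group. Its paired log2 change was −0.29, with an interval from −1.02 to 0.44.

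IRS1 and IRS2, the adaptors that carry the signal from these receptors, differed in how they varied between libraries. IRS1 measured 59.0, 41.9, 6.76 and 65.9 CPM in control and 26.3, 16.3, 4.00 and 49.3 CPM in siG9a. It was lower in 4 of 4 pairs, as were 15.3% of all genes, and was lowest in replicate 3 of both groups. Its averages were 43.4 ± 26.4 and 24.0 ± 19.2 CPM (SD, n = 4 each). IRS1 differed by −0.87 ± 0.23 (SE) in log2, and limma gave adjusted p values of 0.0161 paired and 0.687 unpaired. The paired call of IRS1 was lost without replicate 1 (0.0977) and without replicate 2 (0.154), and without replicate 3 its adjusted p was 0.0222. IRS2 measured 10.3, 26.1, 127 and 30.6 CPM in control and 6.19, 39.3, 63.4 and 50.5 CPM in siG9a, and was lower in 2 pairs and higher in 2. IRS2 was highest in replicate 3 and lowest in replicate 1 of both groups, the reverse of IRS1 in replicate 3. Its paired log2 change was −0.09 with a 95% interval from −0.61 to 0.43. Replicate number accounted for 91.1% of the sum of squares of IRS2 in log2(CPM + 1) over the 8 libraries and group for 0.136%, against 87.04% and 11.04% for IRS1.

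Among the binding proteins, IGFBP2 held between 85.8% and 95.2% of the reads of the 7 genes IGFBP1 to IGFBP7 in each library. IGFBP2 (ENSG00000115457), which binds IGF2 with high affinity, measured 537, 396, 141 and 232 CPM in control and 154, 115, 60.5 and 208 CPM in siG9a. Pair by pair, siG9a retained 28.6%, 29.1%, 42.8% and 89.9% of it. The groups overlapped through control replicate 3 and siG9a replicates 1 and 4, yet each pair was lower. Its averages were 326 ± 175 and 134 ± 62.3 CPM (SD, n = 4 each), and the log2 difference was −1.23 ± 0.19 (SE). Limma gave adjusted p values of 0.00015 paired and 0.273 unpaired. IGFBP2 was called in each of the 11 alternative fits with the block, DESeq2 and the 4 fits without a pair included. IGFBP5, a binding protein made by differentiating muscle, measured 1.37, 4.25, 9.84 and 8.83 CPM in control and 1.55, 0.61, 1.14 and 3.44 CPM in siG9a. It was lower in 3 of 4 pairs, rested on 42 and 12 reads over the groups, and had a limma adjusted p of 0.064 paired and 0.362 unpaired. IGFBP4, another inhibitory binding protein, had 12 reads in control and 2 in siG9a. Only 1 library held more than 3 of its reads. Its 4 control values lay above its 4 siG9a values, as for 3.45% of all genes in this direction. This separation rests on replicate 2, with 2 reads in both libraries (1.22 CPM in control and 1.21 CPM in siG9a), which differ by library total alone. For IGFBP4 the pooled ratio was 0.157 with an exact 95% interval from 0.0170 to 0.703 for counting error only. Its limma adjusted p was 0.112 paired and 0.299 unpaired.

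**Figure D3:**
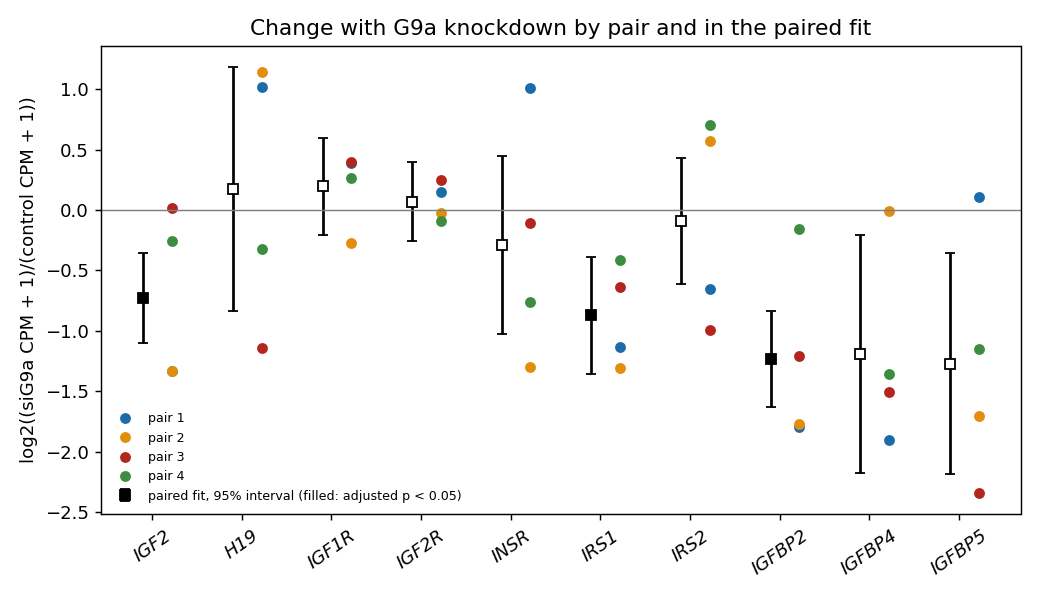
Change of each member between siG9a and control on the log2(CPM + 1) scale. Coloured points are the 4 pairs and squares are the paired fit with its 95% interval, filled for IGF2, IRS1 and IGFBP2, whose adjusted p was under 0.05.

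The promoters of IGFBP2 and IRS1, which fell in the paired fit, are shown with that of IRS2, which varied between libraries in its own way. Each is the 250 bases before a RefSeq transcript start (GRCh38.p14), 5′ to 3′ on the gene's strand, at the start nearest to the principal GENCODE transcript. Such an entry was found for 9 of the 10 members. The member without one was IGF2, which also fell in the paired fit, so the statements on promoters leave it out. Capitals mark GC boxes, the letters GGGCGG or CCGCCC, which may overlap and which Sp1-family factors bind.
IGFBP2, chr2:216633170-216633419, plus strand: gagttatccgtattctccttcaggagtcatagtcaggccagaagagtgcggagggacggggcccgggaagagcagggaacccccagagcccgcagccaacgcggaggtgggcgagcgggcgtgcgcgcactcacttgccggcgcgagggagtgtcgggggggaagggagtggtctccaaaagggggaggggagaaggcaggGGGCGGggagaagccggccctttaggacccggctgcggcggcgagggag
IRS1, chr2:226799821-226800070, minus strand: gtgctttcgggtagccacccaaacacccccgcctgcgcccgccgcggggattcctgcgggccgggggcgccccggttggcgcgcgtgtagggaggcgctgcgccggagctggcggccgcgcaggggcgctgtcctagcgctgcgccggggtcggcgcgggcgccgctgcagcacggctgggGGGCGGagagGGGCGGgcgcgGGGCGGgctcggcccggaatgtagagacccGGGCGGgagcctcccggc
IRS2, chr13:109786584-109786833, minus strand: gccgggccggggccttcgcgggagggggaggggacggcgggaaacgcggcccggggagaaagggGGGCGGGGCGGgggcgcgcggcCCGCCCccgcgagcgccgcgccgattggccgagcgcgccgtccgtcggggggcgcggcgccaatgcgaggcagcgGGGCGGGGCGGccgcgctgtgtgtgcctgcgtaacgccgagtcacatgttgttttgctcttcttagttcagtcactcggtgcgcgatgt
They hold 1, 4 and 5 GC boxes, and 42.6% of 35114 promoters of the same length hold at least 1. The 3 promoters have 22, 39 and 42 CpG dinucleotides, where the median of all promoters is 11. The letters CAGCTG, an E-box that myogenic factors bind, were searched (they read the same on both strands). They were in none of the 9 members' windows, and 13.98% of all promoters hold them. With that share, 9 windows are too few to show a difference. The start used for H19 lies 3391 bases from that of the principal GENCODE transcript, and those of the other members 0 to 61 bases.

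Several members moved with the difference of the replicate 3 libraries. IGF2 was 4.97-fold lower in control replicate 3 than the mean of the other control libraries, and 2.59-fold lower in siG9a replicate 3. For IRS1 these values were 8.23-fold and 7.66-fold, and for IGFBP2 2.74-fold and 2.63-fold. INSR was 3.16-fold and 4.83-fold higher in replicate 3, and IRS2 5.70-fold and 1.98-fold higher. In the same libraries NEFM measured 8046 and 7625 CPM, against 156 to 2498 CPM in the others, and the muscle regulator MYOD1 95.3 and 128 CPM, against 608 to 864 CPM. NEFM was also lowest in replicate 1 of both groups (156 and 182 CPM), where IRS2 was also lowest. The part of these marker genes in the results was not tested. With the replicate 3 pair left out the paired log2 change was −0.97 for IGF2, −0.95 for IRS1 and −1.24 for IGFBP2.

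**Figure D4:**
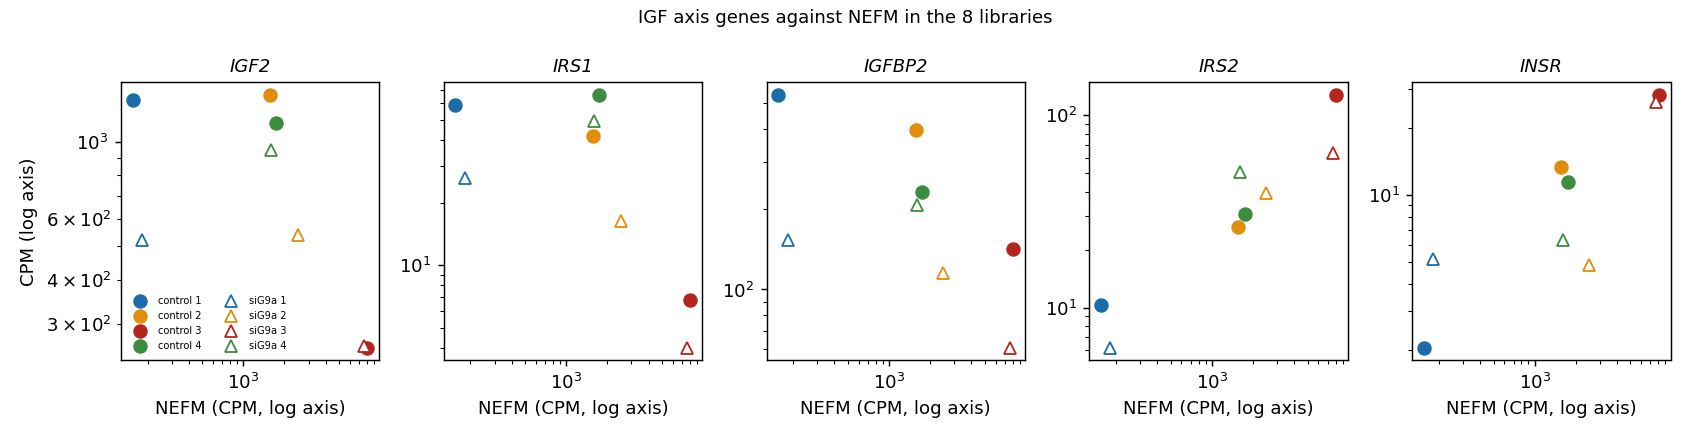
CPM of 5 members against NEFM in the 8 libraries (both axes logarithmic), circles for control and open triangles for siG9a, coloured by replicate number. The replicate 3 libraries, at 8046 and 7625 CPM of NEFM, hold the lowest IGF2 and IRS1 and the highest IRS2 and INSR.

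Across the 8 libraries IRS1 and IGF2 had a Pearson correlation of 0.95 in log2(CPM + 1), and IGFBP2 and IGF2 of 0.87. These libraries share the grouping and the replicate 3 difference, so the correlations are a description. Among 8897 other genes averaging 10 CPM or more, those most like IGF2 were the zinc finger gene ZNF417 (0.99), the Notch-modifying glycosyltransferase gene LFNG (0.99) and DRAXIN (0.98), which encodes a secreted axon guidance protein. LFNG measured 134, 157, 22.1 and 159 CPM in control and 52.6, 54.5, 19.98 and 85.5 CPM in siG9a, lowest in replicate 3 of both groups as IGF2 was. Those most like IGF1R were CDK5R1 (0.97), PTCHD3P1 (0.93) and MINOS1 (0.92), and those most like IGFBP5 were URB1 (0.96), EIF4G3 (0.95) and LARP4 (0.95).

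A list of 77 further genes of the pathway and its locus was divided by role, and 66 passed the filter. It was chosen with earlier results of these data known, so its shares called are a description beside those of all genes. In the paired fit 13 of these were called (19.7%), 3 higher and 10 lower, where 11.4% of all genes were called. Without the block limma called 0 of the 66, with 12 at an unadjusted p under 0.05, as were 12.5% of all genes. Their median log2 change was −0.01. Without the replicate 3 libraries the paired fit called 8 (12.1%), where 7.14% of all genes were called. The unpaired fit without them called 1, ADAM12 (1.52%), where 2.74% of all genes were called. Of the 13 genes, 3 (ADAM12, CD81 and PLAGL1) kept their call in each paired fit without 1 pair, and the calls of the other 10 were lost without at least 1 pair.

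Further binding proteins and their proteases gave 2 falls among 5 tested in the paired fit, where 6.52% of all genes were lower. PAPPA, a protease that cleaves IGFBP4, measured 25.4, 18.2, 12.9 and 8.31 CPM in control and 6.71, 3.63, 5.14 and 4.59 CPM in siG9a. Its groups did not overlap (background in this direction 3.45% of all genes). The log2 difference of −1.44 ± 0.33 (SE) had limma adjusted p values of 0.00559 paired and 0.175 unpaired, and DESeq2 called it without the block (0.0371). ADAM12, a protease that cleaves IGFBP3 and IGFBP5, fell from 71.7 ± 45.1 to 29.8 ± 15.9 CPM (SD, n = 4 each), with a limma adjusted p of 0.0017 paired and 0.488 unpaired. IGFBP3, the main carrier of IGFs in serum, was lower in 4 of 4 pairs (8.95 to 3.24 CPM) with a paired limma adjusted p of 0.0734. Of the further ligands, IGF1 stood at 0 to 4.30 CPM, and its last 500 exonic bases lie under a gene on the opposite strand. INS and INSRR were below the filter.

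The adaptors gave 3 calls among 10 tested in the paired fit, where 11.4% of all genes were called. PTPN1, a phosphatase that acts on the insulin and IGF1 receptors, fell from 604 ± 116 to 405 ± 82.2 CPM (SD, n = 4 each), with a limma adjusted p of 0.00613 paired and 0.307 unpaired. GRB10, an imprinted adaptor that restrains both receptors, fell from 41.7 to 25.5 CPM (limma adjusted p 0.0284 paired, 0.268 unpaired). Its groups did not overlap (background in this direction 3.45% of all genes). SH2B1, an adaptor that promotes insulin signalling, rose from 64.2 to 103 CPM (limma adjusted p 0.0229 paired, 0.289 unpaired). The call of PTPN1 held in the paired fits without replicates 3 and 4 and was missed without replicates 1 (0.0531) and 2 (0.0505). IRS4 was at 0 in every library.

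Of 14 PI3-kinase and AKT genes, 1 passed in the paired fit, where 11.4% of all genes were called. PIK3R1, the main regulatory subunit of PI3-kinase, fell from 33.3 ± 6.17 to 19.2 ± 9.13 CPM (SD, n = 4 each), with a limma adjusted p of 0.0193 paired and 0.326 unpaired. PHLPP2, an AKT phosphatase, was at 3.64 and 8.98 CPM and higher in 4 of 4 pairs (0.0749 paired), and PDPK1, the kinase that activates AKT, at 55.9 and 40.3 CPM (0.133 paired). The 3 AKT genes and the catalytic subunit genes PIK3CA, PIK3CB and PIK3CD did not pass the test. In the mTOR branch 3 of 13 genes were called, beside the same 11.4% of all genes. TSC1, an inhibitor of mTOR complex 1, rose from 85.7, 84.5, 68.3 and 84.1 CPM to 126, 145, 104 and 142 CPM without overlap (background in this direction 3.88% of all genes), with a limma adjusted p of 0.00543 paired and 0.210 unpaired. MLST8, a shared mTOR subunit, fell from 133 to 90.9 CPM (0.0173 paired, 0.503 unpaired), and EIF4EBP1, a translation repressor under mTOR control, from 73.04 to 46.3 CPM (0.0266 paired, 0.350 unpaired). Of the 7 AKT substrates none passed, including FOXO1 (177 and 195 CPM), whose reads here cannot be told from those of the fusion transcript, FOXO3 (61.5 and 50.3 CPM) and TBC1D4 (6.60 and 9.27 CPM). The last 500 exonic bases of PHLPP2 lie wholly, and those of MLST8 in part, under genes on the opposite strand, and part of those of FOXO1 is shared with a gene on the same strand.

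Of the 3 IGF2 mRNA-binding proteins, IGF2BP1 rose from 119, 131, 119 and 132 CPM to 247, 190.1, 178 and 180 CPM, by 0.65 ± 0.15 (SE) in log2. The groups of IGF2BP1 did not overlap (background in this direction 3.88% of all genes). Its limma adjusted p was 0.00569 paired and 0.207 unpaired, and DESeq2 called it without the block (0.0435). IGF2BP2 was lower in 4 of 4 pairs (229 and 175 CPM, 0.0871 paired), and IGF2BP3, whose transcript end lies under a gene on the opposite strand, measured 21.4 and 22.7 CPM. Among 6 transcription factors known to act on IGF2, PLAGL1, an imprinted zinc finger gene, fell from 20.6 ± 6.20 to 7.84 ± 4.88 CPM (SD, n = 4 each), with a limma adjusted p of 0.0023 paired and 0.254 unpaired. HMGA2 (189 and 149 CPM) and PLAG1 (5.15 and 3.14 CPM) were lower in 4 of 4 pairs, as were 15.3% of all genes, and did not pass (0.126 and 0.208 paired). In replicates 1 and 2 PLAG1 had only 2 reads in control and 0 in siG9a.

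**Figure D5:**
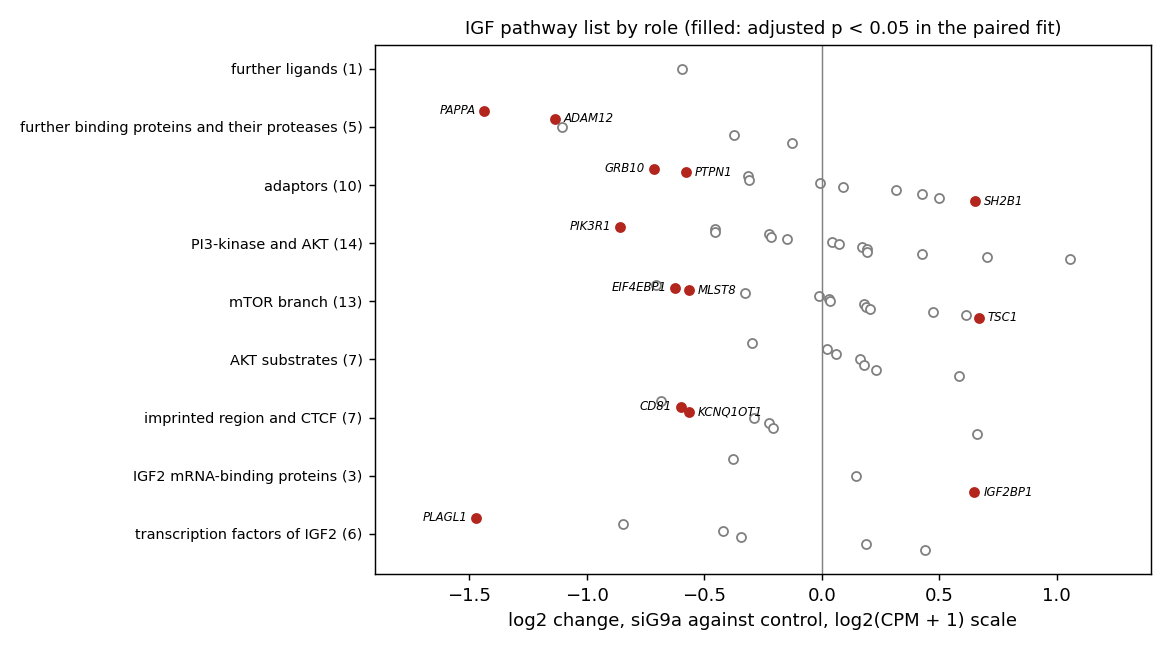
Log2 change of the 66 tested genes of the pathway list by role (number tested in brackets), siG9a against control on the log2(CPM + 1) scale. Filled red points are the 13 genes with an adjusted p under 0.05 in the paired fit, 3 to the right of 0 and 10 to the left.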

How the data were processed

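RNA was sequenced from QuantSeq 3′ mRNA libraries as single-end reads, per the labels' protocols. The deposited values are CPM, counts scaled by the authors to each library's total on genes. Per the submitters' processing notes, FastQC 0.11.8, Trim Galore, STAR 2.5.0a, HTSeq 0.8.0 and edgeR 3.28 were used and the builds GRCh38 and hg19 are named, with no roles given. Strand use is not given in the sources used here. Whole reads were recovered for 100% of non-zero values (tolerance 0.006 CPM).

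The test was limma 3.58.1 (R 4.3.3) on log2(CPM + 1), fitted with group as the only term and moderated with an intensity trend. It was two-sided, covered the 15092 genes averaging 1 CPM or more, and was adjusted over all of them (Benjamini-Hochberg, threshold 0.05). DESeq2's missing adjusted p values were kept missing. The pseudocount of 1 understates changes of low genes. The paired fit adds the replicate number from the titles as a block. Same-numbered libraries had correlations of deviations from group means of 0.500, 0.104, 0.673 and 0.130 across genes, all over 0.1, and differently numbered ones from −0.516 to 0.144. Control replicate 2 correlated more with siG9a replicate 4 (0.144) than with its own number (0.104). Alternatives were pseudocounts, filters, scalings, array weights, edgeR 4.0.16 and DESeq2 1.42.0 on recovered reads, and libraries left out. Permutation tests used scipy 1.17.1. Scripts were tested on simulated data with 200 changed genes, in which both groups shared the mean of each replicate number. With the block limma, edgeR and DESeq2 recovered 88.5%, 89.5% and 75% of the changed genes, and without it 0%, 0% and 47%. The shared means were built in, so the simulation does not show which fit suits the real libraries. Intervals and floors (3 reads) cover counting error only. Coordinates, overlaps and promoters come from GENCODE 29 and RefSeq, and 14736 of the tested identifiers were in the former.

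The members and lists were chosen with earlier results of these data known. All members are named. From the pathway list the 3 genes per role with the smallest paired p are named, and the 3 genes most correlated with IGF2, IGF1R and IGFBP5.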

Additional observations from a re-analysis of the deposited data

Results flagged for a closer look

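For the named genes, Dixon's ratio asked whether an extreme library lay far from the other 3 of its group, at the 95% level. Of 76 groups, 6 had such a library, where chance gives about 3.80, and 5 of the 6 were replicate 3 libraries. INSR stood at 26.3 CPM in siG9a replicate 3, where the other siG9a libraries lay between 4.84 and 6.31 CPM. IGFBP4 stood at 1.21 CPM, 2 reads, in siG9a replicate 2 and was at 0 in the other 3. In control replicate 3, TSC1 stood at 68.3 CPM (others 84.1 to 85.7), FOXO1 at 48.6 CPM (others 209 to 233) and HMGA2 at 110.1 CPM (others 209 to 223). HMGA2 stood at 83.4 CPM in siG9a replicate 3, where the others lay between 166 and 180.02 CPM.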

How the results depend on the processing

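The replicate block moved the counts most. It changed the genes called from 0 to 1717 with limma, 0 to 1709 with edgeR and 291 to 969 with DESeq2. Members called went from 0 to 3 with limma and edgeR and 0 to 2 with DESeq2, and list genes from 0 to 13, 0 to 14 and 2 to 9. With other scalings and the block, chosen after seeing the data, the numbers of genes, members and list genes called were 1694, 3 and 13 by median ratio, 1715, 3 and 13 by TMM, 1688, 3 and 14 by quantiles, and 1794, 3 and 14 without mitochondrial genes. Paired fits without 1 pair called 668 to 1393 genes (951 without replicate 1, 668 without replicate 2, 1078 without replicate 3, 1393 without replicate 4), 1 to 3 members (2, 1, 3 and 3 in the same order) and 4 to 12 list genes (7, 4, 8 and 12). Without the block, leaving out 1 library called 0 to 300 genes, 0 to 1 members and 0 list genes. The 300 genes and the member IGFBP2 were called without control replicate 3, and 2 genes without siG9a replicate 4. Leaving out both replicate 3 libraries called 413 genes, 2 members and 1 list gene, array weights 436, 1 and 2, DESeq2 without the block 291 genes, 0 members and 2 list genes, and no filter 18 genes and 0 members. The other alternatives without the block called 0 members.

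IGF2, IRS1 and IGFBP2 were lower in all 32 alternatives run, with log2 changes from −1.30 to −0.40, −1.58 to −0.24 and −1.59 to −0.90. The block called them in 8, 9 and 11 of its 11 alternatives, and the other 21 alternatives called them in 1, 0 and 3. IGFBP5 was called in 1, the paired fit without replicate 1 (limma adjusted p 0.0266), with a range of 0.0266 to 0.640 over its alternatives. The H19 to IGF2 difference kept its sign and did not pass in its alternatives, and an exact sign-flip test over the 4 pairs (the block) gave p = 0.500, where 4 pairs can reach 0.125.

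Genes with no call in any fit changed sign as follows, none past the threshold. H19 was at −0.159 with edgeR, ranged from −0.14 to 0.54 with 1 library left out (−0.14 without control replicate 1 or 2 and −0.02 without siG9a replicate 4), and was at −0.11 and −0.15 in the paired fits without replicates 1 and 2. IGF2R was at −0.0102 with array weights and ranged from −0.0186 (without siG9a replicate 1) to 0.152 with 1 library left out. INSR ranged from −0.915 to 0.171 (without control replicate 3) with 1 library left out and was at 0.047 in the paired fit without replicate 2. IRS2 was at 0.40 with array weights, ranged from −0.614 to 0.615 with 1 library left out (positive without control replicate 3, 0.55, and siG9a replicate 1, 0.61), and was at 0.0931 in the paired fit without replicate 1 and 0.21 without both replicate 3 libraries, paired or not. Without both replicate 3 libraries, paired or not, IGF1 was at 0.0065 and CDKN1C at 0.0381. FOXO1 was at −0.0217 with array weights and ranged from −0.31 (without control replicate 3) to 0.592. IGF2BP3 ranged from −0.13 (without control replicate 1) to 0.279, and was at −0.13 in the paired fit without replicate 1. The depth limits H19, IGFBP4, IGFBP5, IGF1, INS-IGF2 and PLAG1, where many libraries held few reads.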
